A study of Mus musculus with 98 samples.

Results

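The human rows of a liver count table describe the human hepatocytes that live inside the livers of chimeric mice, and a 24 h cosine was fitted to each of them to measure its daily rhythm. The members were the 17729 human rows (identifiers starting ENSG) of the 37418 rows of that table, read in 15 of the 98 samples of the series. These 15 samples, the Hu livers, came from male FRGN mice, for which the protocol in the labels gives an age of 10 weeks. The protocol text breaks off, so the light schedule, feeding times and exact age at collection are not known here. FRGN mice lack Fah, Rag2 and Il2rg on a non-obese diabetic background, and their livers had been repopulated with human hepatocytes injected into the spleen. The host keeps its own mouse cells in the liver, and mouse rows of the table hold their RNA. The 12 Mu livers came from FRGN mice of the same age and sex repopulated with murine hepatocytes, so both groups share the 3 deletions, the transplantation, cycles of nitisinone, an antibiotic mixture in the drinking water and the diet. Livers were collected at 6 zeitgeber times (ZT, in h counted from lights-on), namely ZT 2, 6, 10, 14, 18 and 22, with 3 Hu livers each at ZT 2, 6 and 18 and 2 each at ZT 10, 14 and 22. The labels give no human donor for a liver, so livers may share a donor or not, and each liver was taken as 1 sample.

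Hepatocytes carry a circadian clock, a loop in which transcription activators switch on their own repressors, and this loop gives many liver genes a daily peak and trough. Signals from the brain's central clock, feeding, hormones and body temperature reach the liver and set or add to this timing. In a chimeric liver the human cells meet the hormones, temperature and feeding times of a nocturnal mouse, and the study's title names hepatocyte clocks and the setting of phase as its subject.

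The human rows could not be matched to gene names: the name table at hand paired 0 of 17729 human identifiers with a symbol, and 19615 of 19689 mouse identifiers. The human genes are therefore described by peak time, amplitude and level, and functions or hepatocyte markers could not be checked by name. Only 4 human identifiers are printed, the 2 with the smallest p-values among genes peaking from ZT 0 to 12 and the 2 among genes peaking from ZT 12 to 24, a choice made after their values were seen. Mouse genes of the same livers are named where they give a time reference.

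Human rows held 12.05 to 103.4 M counts per Hu liver (median 68.6 M), which was 15.86 to 93.07% of the library. The labels state that mice with over 70% human repopulation were chosen, and the human share of counts was over 70% in 4 of the 15 livers. In the Mu livers, which hold no human cells, 0.00592 to 0.0204% of counts fell in human rows. Mean human shares were 41.7, 49.6, 73.8, 73.8, 67.03 and 47.6% at ZT 2, 6, 10, 14, 18 and 22. A 24 h cosine explained 0.351 of the variance of the logit of the share, with a peak at ZT 13.9, and this did not pass the threshold (permutation test over 15 livers, 100000 draws, p = 0.0717). In bulk tissue, a low human share from fewer human cells and one from less RNA per human cell cannot be told apart.

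The livers did not form 1 cloud. The first principal component of the human rows held 38.5% of the variance, and it set 5 livers (scores -42.3 to -34.8) apart from the other 10 (scores 1.02 to 55.4). The 5 are replicate 1 at ZT 2, 6, 14, 18 and 22. Their human shares ran from 15.86 to 67.9%, beside 35.3 to 93.07% in the other 10, and the set explained 0.307 of the variance of the logit of the share, so set and share were associated. A 24 h cosine explained 0.0330 of the variance of this component, and the 5 include no liver of ZT 10. Replicate 1 at ZT 10 stood at the far opposite end, at 55.4. The labels give no batch or donor that marks the 5 livers, and the source of the division was not tested. The count of rhythmic genes and their peak times are given below with and without it.

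**Figure D1:**
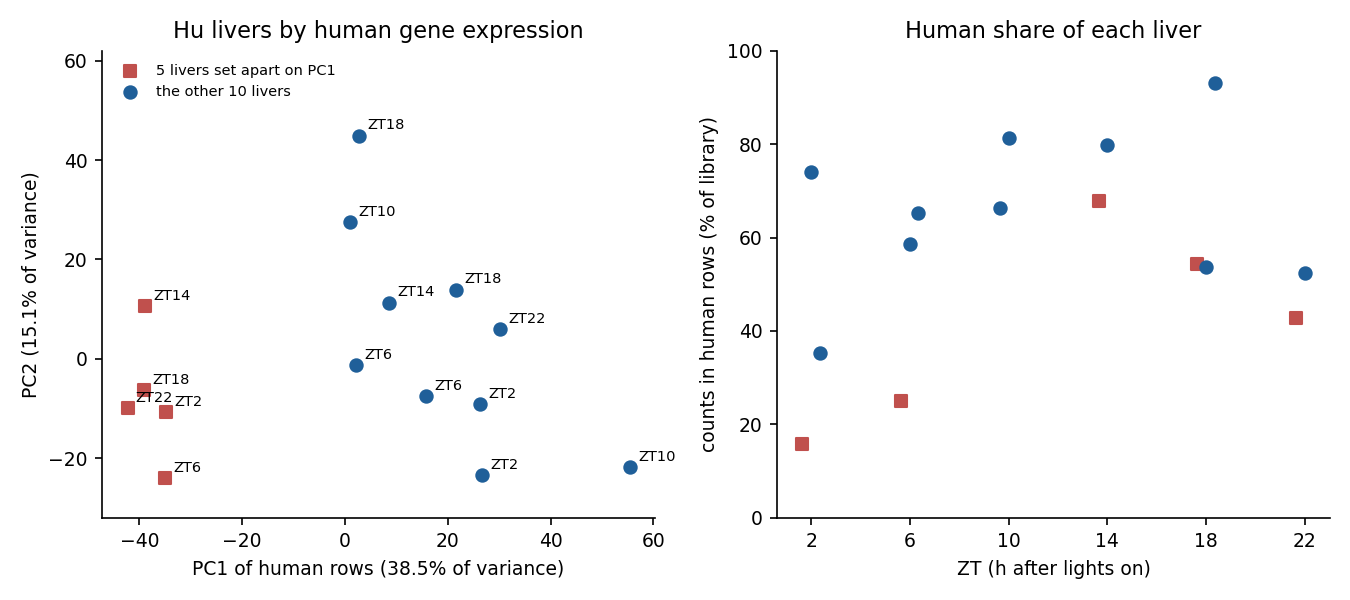
Left, the 15 Hu livers by the first 2 principal components of log2 CPM (counts per M counts in human rows, after scaling), each point 1 liver with its ZT. Right, the percentage of each library in human rows against ZT, replicates drawn side by side. The 5 livers set apart lie between -42.3 and -34.8 on PC1, and the human share spans 15.86 to 93.07%.

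Of the 17729 human rows, 12832 passed the filter on low counts and were tested, and they held 99.9% of human counts on average. A 24 h rhythm was found in 139 of them, 1.08% of the genes tested (edgeR quasi-likelihood F test of cosine and sine terms, Benjamini-Hochberg adjusted p under 0.05). At an unadjusted p under 0.05 there were 2463 genes, or 19.2%. Just inside the threshold, the last 3 genes had adjusted p-values of 0.0483 to 0.0490 and amplitudes of 0.39 to 0.66, and the next 3 outside had 0.0501 to 0.0502 and amplitudes of 0.18 to 0.32. The amplitude is the log2 distance from the fitted mean to the fitted peak.

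In the fit without covariates, the peaks of the 139 rhythmic human genes were crowded between ZT 14 and 18. Of the 139, 58 (41.7%) peaked between ZT 14 and 18, where 18.7% of all tested genes had their fitted peak. Another 38 genes (27.3%) peaked between ZT 0 and 6, near the 26.5% of all tested genes. Only 7 genes peaked between ZT 8 and 12, and 5 between ZT 20 and 24. Of all tested genes, 8.3 and 8.4% peaked in the 2 h from ZT 8 and from ZT 10. In the 2 h from ZT 20 and from ZT 22 it was 6.4 and 6.6%. Over the whole day 85 genes (61.2%) peaked from ZT 12 to 24 and 54 from ZT 0 to 12, beside 48.4% from ZT 12 to 24 among all tested genes. Library sizes were also taken over human and mouse rows together, without scaling factors. In that fit 98 genes were called, 22 of them among the 139, and 71.4% peaked from ZT 12 to 24. Levels scaled this way carry the human share of each liver, whose own fitted peak was ZT 13.9. Other fits gave percentages nearer to the 48.4% of all tested genes. These were 54.6% of 1125 genes with DESeq2, 52.04% of 1743 with limma voom and 52.9% of 17 with the human share as a covariate. Leaving out 1 liver gave 50 to 76.8%, the lowest without replicate 3 at ZT 6 and the highest without replicate 2 at ZT 10. The median SE of a peak time was 0.705 h, and it ranged from 0.429 to 0.833 h.

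Amplitudes of the 139 genes ran from 0.17 to 2.30, with a median of 0.41 and a median SE of 0.07. Over all tested genes the median amplitude was 0.15 with a median SE of 0.08. The 139 were chosen by a test of these same amplitudes, so their larger values are a description. The median rhythmic gene was 1.76-fold higher at its peak than at its trough, and the range was 1.27 to 24.4-fold. Amplitudes were of like size before and after ZT 12, with a median of 0.39 for peaks from ZT 0 to 12 and 0.42 for peaks from ZT 12 to 24. A peak more than 2-fold over the trough was fitted for 51 of the 139, beside 848 of all 12832 tested genes. Of the 51, 20 peaked from ZT 0 to 12 and 31 from ZT 12 to 24. More than 4-fold was fitted for 11 of the 139, beside 78 of all tested genes. Of the 11, 5 peaked from ZT 0 to 12, and the 11 had mean levels from -0.18 to 8.72 log2 CPM.

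Rhythmic genes were found more often among well expressed genes. The tested genes were divided by mean level into 4 classes of 3208. In the lowest class (up to 2.64 log2 CPM) 12 were rhythmic, or 0.374%, and their median amplitude was 0.66. In the next it was 29 (0.904%), in the third 51 (1.59%) and in the highest 47 (1.47%), with a median amplitude of 0.38 in the highest. The median SE of the amplitude over all genes was 0.16 in the lowest class and 0.06 to 0.08 in the other 3. The part of this SE in the lower rate of calls was not tested.

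The mean course of each peak group showed how evenly the livers of a time point moved. The values here are deviations from each gene's mean over the 6 times, in log2 CPM, averaged over the genes of a group. Since these genes were chosen by their rhythm in the same livers, their course is a description. The 70 genes with peaks from ZT 12 to 18 stood at -0.53 to -0.31 in the 3 livers of ZT 2, and at -0.45 to -0.35 in those of ZT 6. They had risen to 0.10 and 0.24 in the livers of ZT 10 and to 0.29 and 0.44 at ZT 14, then stood between 0.19 and 0.58 at ZT 18 and at -0.16 and 0.03 at ZT 22. All livers of ZT 14 and 18 lay above all livers of ZT 2 and 6.

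The 38 genes with peaks from ZT 0 to 6 ran the other way. They stood at 0.31 to 0.53 in the livers of ZT 2 and 0.31 to 0.43 at ZT 6, fell to -0.54 and -0.32 at ZT 14, and ranged from -0.58 to -0.21 at ZT 18. By ZT 22 they were back at 0.05 and 0.13. The 2 smaller groups had their extremes near ZT 6 to 10 and ZT 18 to 22: the 16 genes with peaks from ZT 6 to 12 averaged 0.51 at ZT 6 and -0.47 at ZT 18, and the 15 genes with peaks from ZT 18 to 24 averaged -0.49 at ZT 6 and 0.40 at ZT 22.

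**Figure D2:**
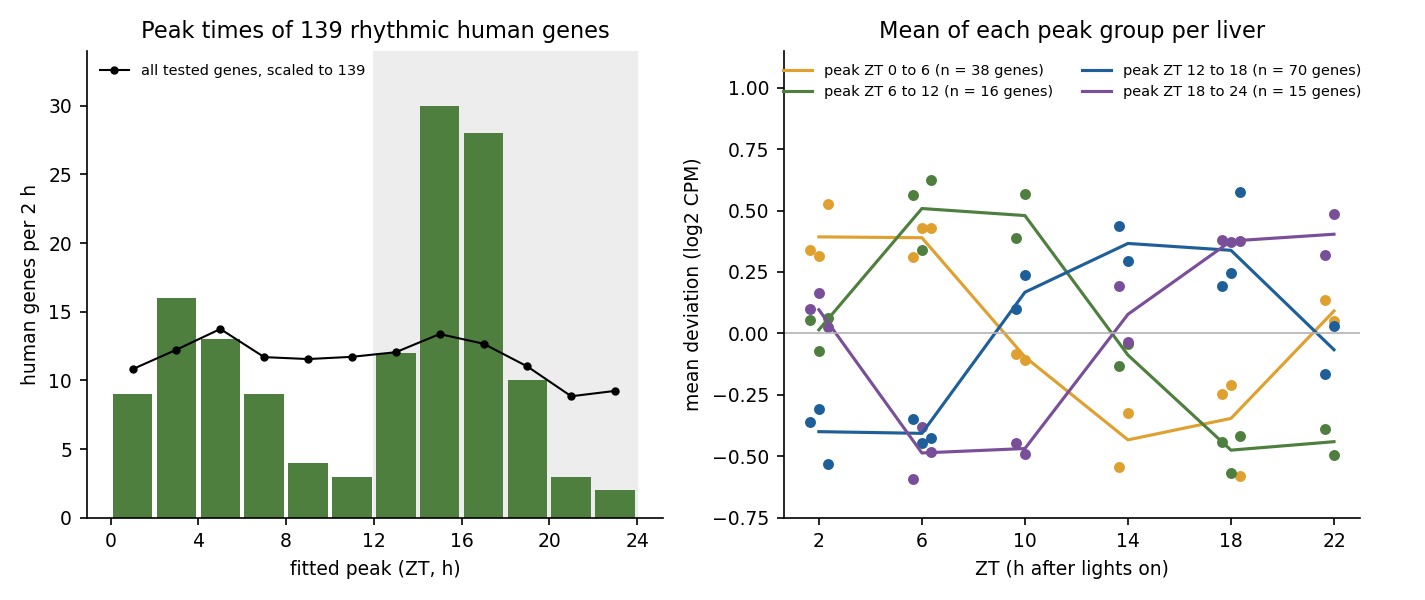
Left, bars give the number of the 139 rhythmic human genes per 2 h of fitted peak time, and the line gives the peak times of all 12832 tested genes scaled to the same total; ZT 12 to 24 is shaded. Right, each point is the mean deviation of a peak group in 1 liver and lines join the means per ZT; the group of 70 genes is lowest at ZT 2 and 6 and highest at ZT 14 and 18.

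ENSG00000126368 had the largest amplitude of the 139. Its level was 23.9, 37.5 and 48.9 CPM in the livers of ZT 2, and 70.6, 81.0 and 108.2 CPM at ZT 6. It was 9.27 and 31.8 CPM at ZT 10, 1.57 and 8.47 CPM at ZT 14, 2.08, 2.24 and 6.22 CPM at ZT 18, and 3.47 and 12.2 CPM at ZT 22. All livers of ZT 6 lay above all others, and all livers of ZT 14 and 18 lay below all livers of ZT 2, 6 and 10. The fitted amplitude was 2.30 ± 0.26 (SE), a 24.4-fold peak over trough, with the peak at ZT 5.31 ± 0.488 h (edgeR adjusted p = 0.00518).

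ENSG00000203883 was a low gene with a deep rhythm. The 3 livers of ZT 6 held 4.87, 4.93 and 6.96 CPM, those of ZT 2 held 1.32, 2.94 and 3.23 CPM, and those of ZT 10 held 2.31 and 5.27 CPM. It fell to 0.287, 0.477 and 0.581 CPM at ZT 18, where the counts were 17, 30 and 61. At ZT 22 it was 0.571 and 1.05 CPM, from 28 and 13 counts, and at ZT 14 it was 0.987 and 2.40 CPM. The 13 counts came from the library with the fewest human counts, 12.05 M. All livers of ZT 2, 6 and 10 lay above all livers of ZT 18 and 22, and the livers of ZT 14 overlapped both sides. The amplitude was 1.78 ± 0.20 (SE), with the peak at ZT 7.12 ± 0.446 h (edgeR adjusted p = 0.00518).

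The identifier with the smallest p-value of all, ENSG00000144591, had a shallow rhythm with little spread. It held 21.3, 22.2 and 23.1 CPM at ZT 6, 21.9, 27.7 and 27.9 CPM at ZT 2 and 27.2 and 30.5 CPM at ZT 10. It was 41.5 and 42.6 CPM at ZT 14, 35.7, 46.4 and 51.1 CPM at ZT 18 and 37.2 and 38.4 CPM at ZT 22. Every liver from ZT 14 to 22 lay above every liver from ZT 2 to 10. The amplitude was 0.52 ± 0.05 (SE), a 2.05-fold peak over trough at ZT 17.3 ± 0.429 h (edgeR adjusted p = 0.00358).

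ENSG00000239306 peaked earlier, at ZT 15.6 ± 0.483 h, with an amplitude of 0.58 ± 0.07 (SE; edgeR adjusted p = 0.00518). Its livers held 12.5, 15.6 and 18.2 CPM at ZT 2 and 15.3, 15.6 and 15.8 CPM at ZT 6. From ZT 10 on they held more, 25.6 and 26.3 CPM at ZT 10, 29.97 and 32.2 CPM at ZT 14, 26.1, 30.2 and 35.7 CPM at ZT 18, and 19.6 and 27.5 CPM at ZT 22. All livers of ZT 2 and 6 lay below all livers of the other times.

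**Figure D3:**
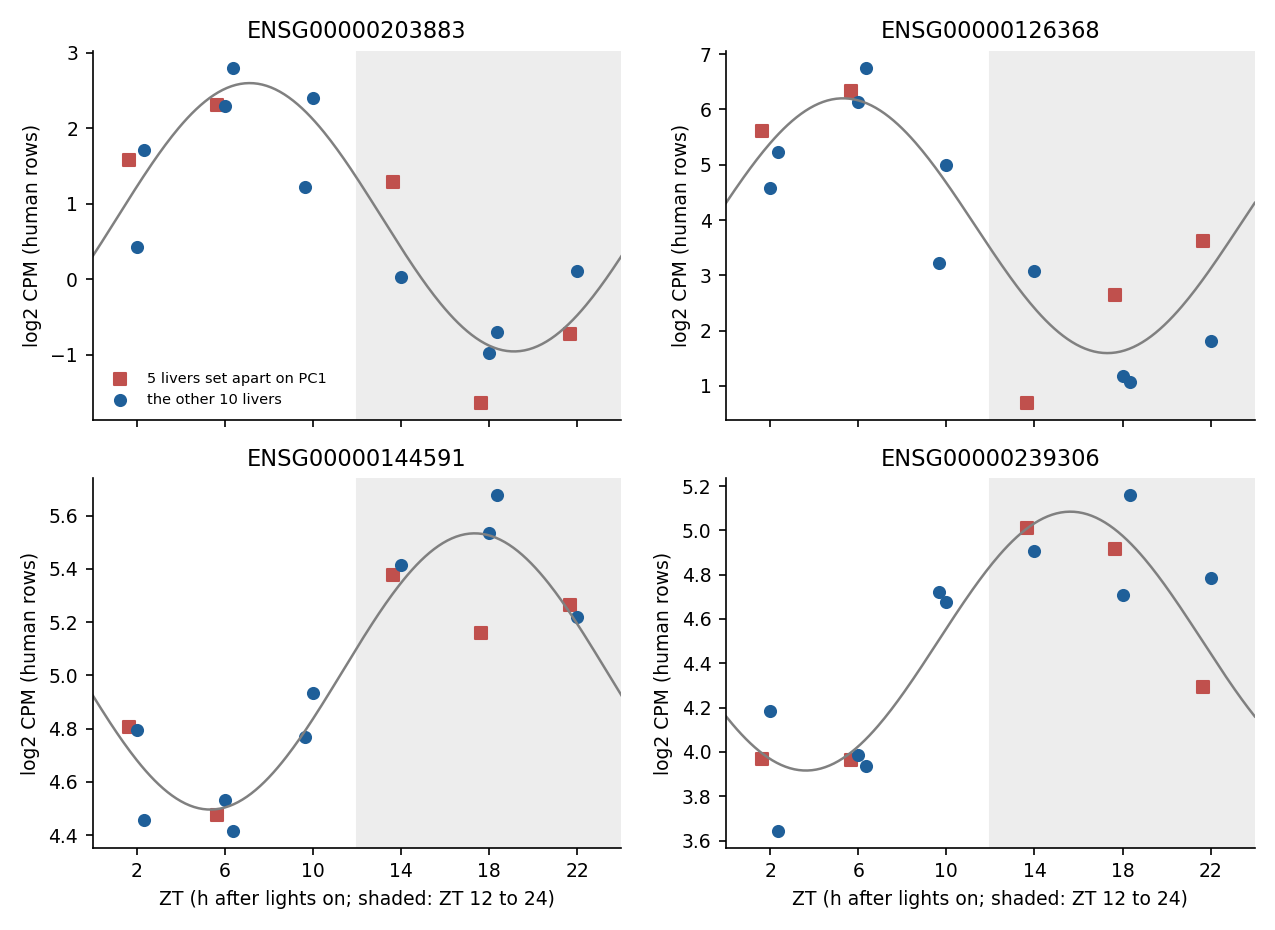
Log2 CPM of 4 human identifiers in each of the 15 Hu livers against ZT, with the fitted 24 h cosine as a line; squares are the 5 livers set apart on PC1, replicates are drawn side by side, and ZT 12 to 24 is shaded. The upper pair peaks at ZT 7.12 and 5.31 and the lower pair at ZT 17.3 and 15.6.

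The human share was then added to the fit, because the mean share was higher at ZT 10 and 14 than at ZT 2. With the logit of the share as a covariate, 17 genes were rhythmic (0.132% of those tested), and all 17 were among the 139. The fitted rhythms themselves moved little. Across the 139 genes the median ratio of the amplitude with the share to that without was 0.942 (range 0.639 to 1.31), the amplitude was smaller for 103, the median change of peak time was 0.219 h and the largest was 1.46 h. The SE of the amplitude grew by a median factor of 1.11, and the median adjusted p rose to 0.136 (highest 0.252).

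The peak groups differed in this respect. For the 70 genes with peaks from ZT 12 to 18, which span the share's own fitted peak of ZT 13.9, the median amplitude ratio was 0.874, and 4 passed the threshold in this fit. For peaks from ZT 6 to 12 and from ZT 18 to 24 the ratio was 1.003 and 1.01, and 5 of 16 and 5 of 15 passed. For peaks from ZT 0 to 6 it was 0.954, and 3 of 38 passed. The 17 genes called with the share were thus spread over the day as 3, 5, 4 and 5 per 6 h from ZT 0. They are too few to tell whether the crowding of peaks from ZT 12 to 18 remained. All 4 printed identifiers passed with the share in the fit, at adjusted p-values of 0.0207 for ENSG00000126368, 0.0146 for ENSG00000203883, 0.0146 for ENSG00000144591 and 0.0288 for ENSG00000239306 (edgeR). With both share and set of livers in the fit, ENSG00000239306 did not pass (edgeR adjusted p = 0.0720) and the other 3 did. How far rhythm and share can be separated is limited by the design, since the 5 lowest shares (15.86 to 52.5%) were all in livers of ZT 2, 6 or 22.

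No human gene was called for following the share itself once the rhythm was in the fit. In the same fit, 0 of 12832 human genes (0%) had a slope on the logit of the share with an edgeR adjusted p under 0.05 (smallest 0.0820). At an unadjusted p under 0.05 there were 1626 of the 12832, 797 rising and 829 falling with the share. Among the rhythmic genes it was 20 of 139, and this overlap was not tested. The DESeq2 test called 148 genes, and without replicate 2 at ZT 18 edgeR called 42.

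**Figure D4:**
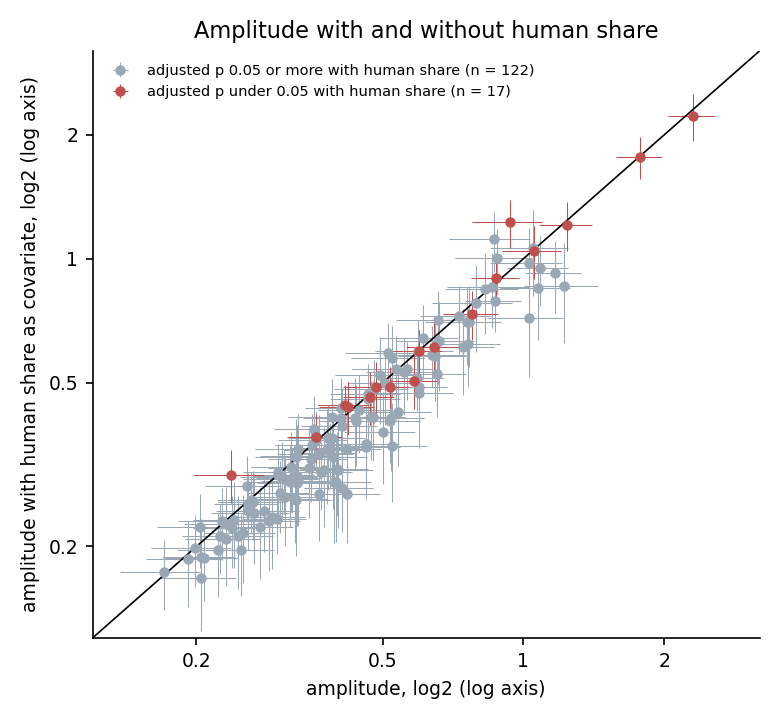
Amplitude of the 139 rhythmic human genes without (x) and with (y) the human share as a covariate, on log axes, with SEs as bars; the line marks equal values. Points lie close to the line, with a median ratio of 0.942, and 17 genes kept an adjusted p under 0.05.

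Adding the division of the livers moved the count the other way. With the set of 5 or 10 livers as a factor, 776 genes (6.05%) were rhythmic, among them all 139. The amplitudes of the 139 hardly moved, with a median ratio of 1.001, and no peak moved by more than 0.402 h. Of the 776, 58.5% peaked from ZT 12 to 24, and the counts per 6 h from ZT 0 were 209, 113, 321 and 133. With the share added to this fit 28 genes were called, 19 of them among the 139. The set was read from the same expression values, so the p-values of these fits may be too small. The 10 livers taken alone gave 172 rhythmic genes (1.33%), of which 43 were among the 139.

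The 5 livers set apart then served as livers that had no part in the choice of those 172 genes. A cosine through the 5, one each at ZT 2, 6, 14, 18 and 22, put the peak of 109 of the 172 genes (63.4%) within 3 h of the peak in the 10 livers, and 16 (9.30%) more than 6 h away. Over all genes tested in the 10 livers these figures were 38.8% and 32.2%, and evenly spread differences would give 25% within 3 h. The median absolute difference was 2.28 h, the median signed difference was -1.08 h (earlier in the 5 livers), and the amplitude in the 5 livers was 0.509 of that in the 10. The genes were chosen by their rhythm in the 10 livers, so the ratio of amplitudes is a description. Genes of the same livers can vary together, so the 172 are not independent, and the percentages are a description too. The human share also differed between times in the 5 livers, at 15.86, 24.96, 67.9, 54.3 and 42.7% at ZT 2, 6, 14, 18 and 22. Genes that follow the share could thus match in peak time, and the part of the share was not tested.

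Single livers carried much of the count of 139. Leaving out 1 liver gave 14 to 357 genes, and 13 of the 139 were called in all 15 such fits and 34 in at least 10. The count moved by over 1.5 times without replicate 2 or 3 at ZT 2 (90 and 29 genes), 1, 2 or 3 at ZT 6 (39, 24 and 14), 1 or 2 at ZT 10 (357 and 82), 1 at ZT 14 (39), 2 or 3 at ZT 18 (92 and 28), or 2 at ZT 22 (63). With 2 livers per time point, replicate numbers 1 and 2, edgeR called 0 genes and 1140 had an unadjusted p under 0.05.

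How well the human genes told the time was measured in livers that had no part in choosing them. For each liver in turn, the 50 human genes with the smallest p-values in the other 14 were taken, and the time at which their fitted curves best matched the liver was read. The estimate was off by a median of 2.25 h, within 3 h in 12 of 15 livers and never by more than 4.75 h, where evenly spread guesses would have a median error of 6 h. The 3 livers off by more than 3 h were replicate 1 at ZT 10 (read as ZT 5.25), replicate 2 at ZT 14 (ZT 18.5) and replicate 1 at ZT 18 (ZT 22). At ZT 10 the poorly read liver was the one at the end of PC1, with a correlation of 0.168 between its values and the fitted curve. The median error was 2.25 h in the 5 livers set apart and 2.13 h in the other 10. The mean human share also differed between times, and its part in these readings was not tested.

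Mouse rows of the same livers gave another reading. The 26 mouse clock and clock output genes, with peak times and amplitudes taken from the Mu livers, read the Hu livers with a median error of 1 h, at most 2.75 h, and within 3 h in 15 of 15. The 3 livers that human genes misread were read by mouse genes at ZT 11, 14.2 and 19, within 1 h of their collection. Mouse values were centred on the means of all 15 Hu livers, the liver being read included, and human values on those of the other 14. The estimates also come from different numbers of genes, and the difference between them was not tested.

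**Figure D5:**
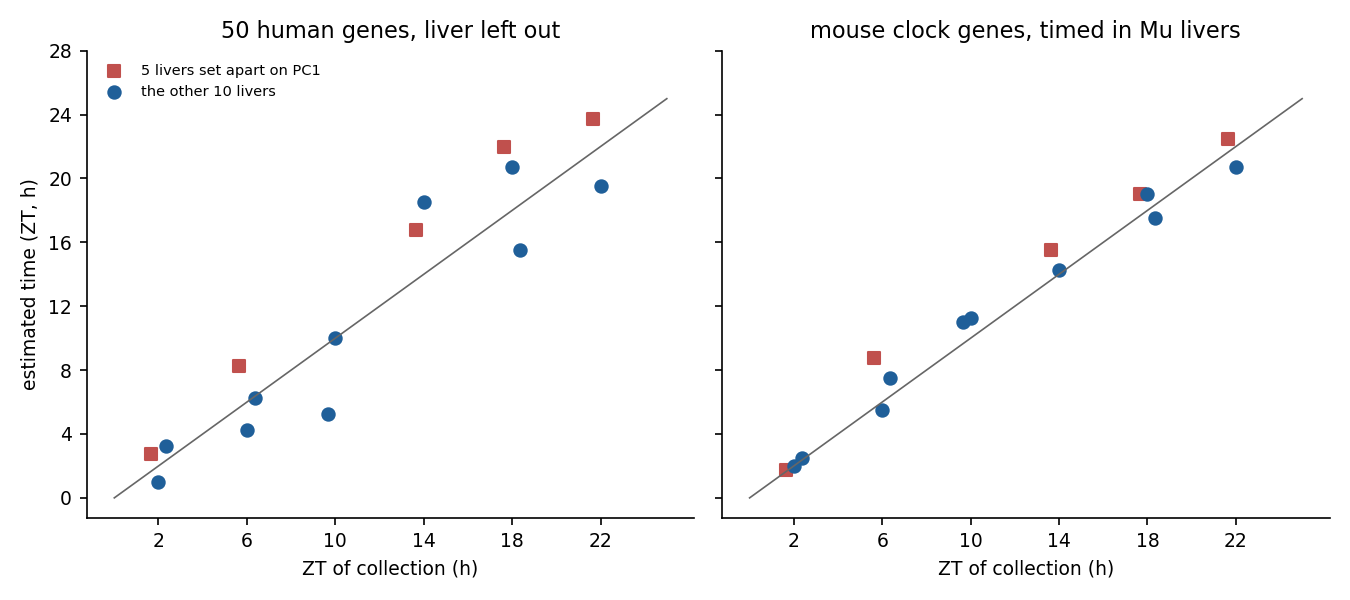
Time of day read from gene expression against the ZT of collection in each Hu liver, from 50 human genes chosen without that liver (left) and from 26 mouse clock genes timed in Mu livers (right); the line marks equality and replicates are drawn side by side. Human genes placed 12 of 15 livers within 3 h and mouse clock genes all 15.

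With the time told by the mouse clock genes in place of ZT, 460 human genes were rhythmic, 138 of them among the 139. That time was read from the same libraries as the human counts, so the p-values of this fit may be too small. The source of the rise in count was not tested. In the mouse rows of the same 15 livers, a cosine fitted alone called 8 of 13879 genes (0.0576%), 11 with the set of livers as a factor (0.0793%) and 10 with the share as a covariate (0.0721%). In mouse rows of the 12 Mu livers the same fit called 3928 of 13577 genes (28.9%). Depth, number of livers and the makeup of the samples differ between these fits, and the differences in count were not tested.

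The 8 mouse genes included 6 of the 26 clock and clock output genes. These were Nr1d1 and Dbp, both direct targets of the clock's activators, Per1, Per2 and Per3, repressors of those activators, and Cry1, another repressor. The rest of the 26 were not called, among them Arntl (edgeR adjusted p = 0.199), Npas2 (0.129), Nr1d2 (0.118) and Clock (0.465). Nr1d1, a nuclear receptor that represses the activator Arntl, peaked at ZT 6.67 with an amplitude of 2.10 in mouse rows of Hu livers, and at ZT 6.98 with 3.63 in Mu livers. Dbp, a transcription factor of clock output, peaked at ZT 9.14 with an amplitude of 2.28. Per1 and Per3 peaked at ZT 12.04 and 11.9, Per2 at ZT 13.4 and Cry1 at ZT 18.9. The other 2 of the 8 called genes were Tsc22d3, a target of glucocorticoids, with its peak at ZT 13.7, and Esco2, which acts in joining sister chromatids, at ZT 1.06.

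Each printed human identifier was compared with all 13879 mouse genes across the 15 livers by Pearson's r of log2 CPM. This is a description, since both values come from the same libraries. The identifiers were also chosen by their rhythm in these livers, so a large r with a rhythmic mouse gene follows in part from that choice. Mouse Nr1d1 ranked first for ENSG00000203883 (r = 0.896) and second for ENSG00000126368 (r = 0.902), after Ctps2 (r = 0.923), which encodes an enzyme of CTP synthesis. In mouse rows, Nr1d1 held 70.6, 72.3 and 113.3 CPM at ZT 6 and 2.92, 4.09 and 6.01 CPM at ZT 18. Mouse Nr1d1 also ran opposite to ENSG00000144591 (r = -0.889) and ENSG00000239306 (r = -0.734). The mouse genes nearest to those 2 were Ppp3r1, a calcineurin subunit (r = 0.864), and 4931428F04Rik (r = 0.929).

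Few mouse reads were expected in the human rows described here. The rate at which mouse reads fell in each human row of the Mu livers was scaled to the mouse counts of each Hu liver. This takes the rate to be the same for the mouse cells of Hu livers, which was not tested. The reads expected from this were at most 0.318% of the count of ENSG00000126368 in any Hu liver, at most 0.3998% for ENSG00000239306 and 0.0479% for ENSG00000144591, and 0 for ENSG00000203883. They exceeded 5% in at least 1 liver for 17 tested genes, 1 of them among the 139, where they reached 13.1%. Leaving those 17 genes out gave 138 rhythmic genes. Human reads placed in mouse rows could not be measured, since no sample holds human cells only. Replicate 3 at ZT 18 held 103.4 M human beside 7.70 M mouse counts. The times, calls and correlations given above for mouse rows carry this limit.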

How the data were processed

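RNA sequencing counts of livers were used. The authors deposited raw counts per gene, whole numbers without normalization, with human and mouse genes in separate rows. STAR and the builds GRCm38/mm10, GRCh38/hg38 and hg19 are named in the submitters' processing notes, with no role. The counting program, annotation and handling of reads that match both species are not given in the sources used here, so no coordinates are given. Libraries were made with a directional kit, per the labels' protocols. Groups and ZT came from the titles.

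Human rows were fitted with edgeR 4.0.16 in R 4.3.3. The library size was the sum of human rows, filterByExpr took the 15 livers as 1 group, TMM (trimmed mean of M values) gave the scaling, and the model held an intercept, a cosine and a sine of 24 h. The set of livers was read from PC1 of log2 CPM, after the data were seen. Log2 CPM used a prior count of 2. SEs were computed from the fit's weights and moderated dispersion. Alternatives used DESeq2 1.42.0 and limma 3.58.1. The scripts were tested on simulated data. Replicates are separately labelled livers, and where they do not come from separate mice the p-values measure technical spread only. The widest 95% Wilson interval of a human share was 52.48 to 52.52% and covers counting error only.

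The members and lists were chosen with earlier results of these data known. The rule for named genes asked for symbols and gene lists, and a planned test of human against mouse rhythm matched genes by symbol; with no human symbols, neither could be applied, and the 4 identifiers follow the rule stated in the text. Muscle and brain samples were not used.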

Additional observations from a re-analysis of the deposited data

How the results depend on the processing

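The count of 139 rhythmic human genes stayed within 1.5 times with RLE factors (146), without a filter on low counts (113), without genes open to mouse reads (138), without ZT 10 (153), with library sizes over all rows (98) and in the 10 livers alone (172). With library sizes over all rows 22 of the 98 were among the 139, and 71.4% peaked from ZT 12 to 24 in place of 61.2%. With the replicate block it was 142, of which 99 were shared. Each liver was centred on the mean of its time, and same-numbered livers then had a mean correlation of 0.229 over 33 pairs (-0.451 to 0.674), 22 over 0.1. Differently numbered livers of different times had a mean correlation of -0.120, and 12 of 15 livers correlated best with their own number. At times with 2 livers the centred values mirror each other, so the 33 pairs are not independent. The numbers were not taken as pairs. The count rose to 1125 with DESeq2 (all 139 shared), 1743 with limma voom and quality weights (138 shared), 229 with a stricter filter, 776 with the set of livers as a factor, 1586 with that factor and without replicate 1 at ZT 10, and 460 with the time told by mouse genes. It fell to 52 without livers under 30% human share, 17 with the share as a covariate, 28 with share and set, 0 with ZT as a factor (978 at an unadjusted p under 0.05) and 0 with replicate numbers 1 and 2 only. Without a time point it was 10 (ZT 2), 4 (ZT 6), 35 (ZT 14), 1 (ZT 18) and 21 (ZT 22). Leaving out 1 liver gave 14 to 357. The causes were not tested. Genes that follow the share numbered 0 with the share in place of its logit and with the replicate block, 148 with DESeq2, 75 without cosine and sine terms, and 0 to 42 leaving out 1 liver. The 4 printed identifiers kept their peak within 6 h in all alternatives with a cosine that tested them, and passed in 133 of 151 fits. ENSG00000203883 was removed by the stricter filter on low counts, so it had 37 fits and the others 38 each. None of the 4 passed with ZT as a factor, with replicate numbers 1 and 2 only or without ZT 6. Without ZT 18 edgeR's adjusted p was 0.145 for ENSG00000203883, 0.144 for ENSG00000126368 and 0.101 for ENSG00000239306. ENSG00000239306 also failed without ZT 2 (0.0722) and with share and set (0.0720), and ENSG00000144591 with library sizes over all rows (0.0825). The planned test of human against mouse rhythm was not run. The SE of the amplitude was largest in the class of genes with the lowest levels, and the part of depth in the calls was not tested. The fits with the set of livers, in the 10 livers and with the time told by mouse genes were chosen after seeing the data.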
